A study of Rattus norvegicus with 15 samples.

Results

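In peripheral blood DNA of rats, 589 of 16782 array regions separated every diabetic animal from every control animal in their methylated DNA ratio. They were chosen by a rule on the measured values: all 12 arrays of the 4 diabetic groups lay above, or all lay below, all 3 control arrays. Of the 16782 regions, 427 (2.54%) lay above control and 162 (0.965%) below, and both sets are described apart. A region is a run of at least 3 neighbouring probes with gaps of up to 500 bp on the rn4 assembly. Its value is the mean over its probes of the median-centred log2 ratio of MeDIP DNA over input DNA, in short the log2 ratio. Since the members were selected on the difference between diabetic and control arrays, every value of that difference below is a description without a test.

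The animals were male Sprague Dawley rats, bought at 8 weeks of age and 20 weeks old, with 3 biological replicates and 1 array per rat in each of 5 groups. The control group received citric buffer in place of streptozotocin, then distilled water. The DR model, for diabetic retinopathy, was made with 45 mg/kg streptozotocin, a toxin that kills the insulin-producing beta cells, and received distilled water. The labels give a glucose cutoff of 13.9 mmol/l for all diabetic groups. The CaD group had the same diabetes and received 0.25 g/kg of calcium dobesilate, a vessel-protecting drug, and 1.5 IU of insulin per day. The LTF group, also diabetic, received 2 g/kg of the herbal Luo-tong formula and the same insulin per day. A further diabetic group received another Chinese herbal formula, called the other formula here. Neither its dose nor whether it came with insulin is given in the labels. Drug and insulin therefore cannot be told apart in the CaD and LTF groups.

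DNA methylation is the addition of a methyl group to cytosine, in mammals mostly where a guanine follows. It is copied at cell division and differs between blood cell types, so a blood sample holds a mixture of profiles. Methylated DNA immunoprecipitation (MeDIP) enriches fragments with an antibody against methylated cytosine. The enriched DNA was hybridised here in the Cy5 channel beside unenriched input DNA in the Cy3 channel. A change in the share of a cell type and a change in methylation within cells cannot be told apart in such samples. No blood cell marker could be checked, because the files give probe positions without genes. For the same reason the members are named by position, and their genes, exons and sequences are not given here.

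Each array held 172669 probes. MeDIP signal was well above background, by the scanner software's own mark, on 77.6% to 90.0% of them and input signal on 91.9% to 96.8%. The interquartile range of the log2 ratio over probes, the width of an array's distribution, was 1.35, 1.47 and 1.55 on the control arrays. It was 1.60, 1.52 and 1.22 in the DR model and between 1.20 and 1.35 on the 9 treated arrays. The arrays were scanned in 6 scans on 3 days. Control replicate 1 and DR model replicate 2 each had a scan alone, and the LTF arrays had a scan and a day of their own.

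The members above control were regions of low ratio, and those below control regions of higher ratio. The median log2 ratio over all arrays was -0.47 in the members above, 0.20 in the members below and -0.04 over all regions. Of the members above, 347 of 427 (81.3%) had a ratio under 0, and of those below 41 of 162 (25.3%), against 53.0% of all regions. In controls alone the medians were -0.69 for the members above and 0.38 for those below. In the diabetic arrays they were -0.42 and 0.17, so both sets lay nearer to 0 in diabetic rats.

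**Figure D1:**
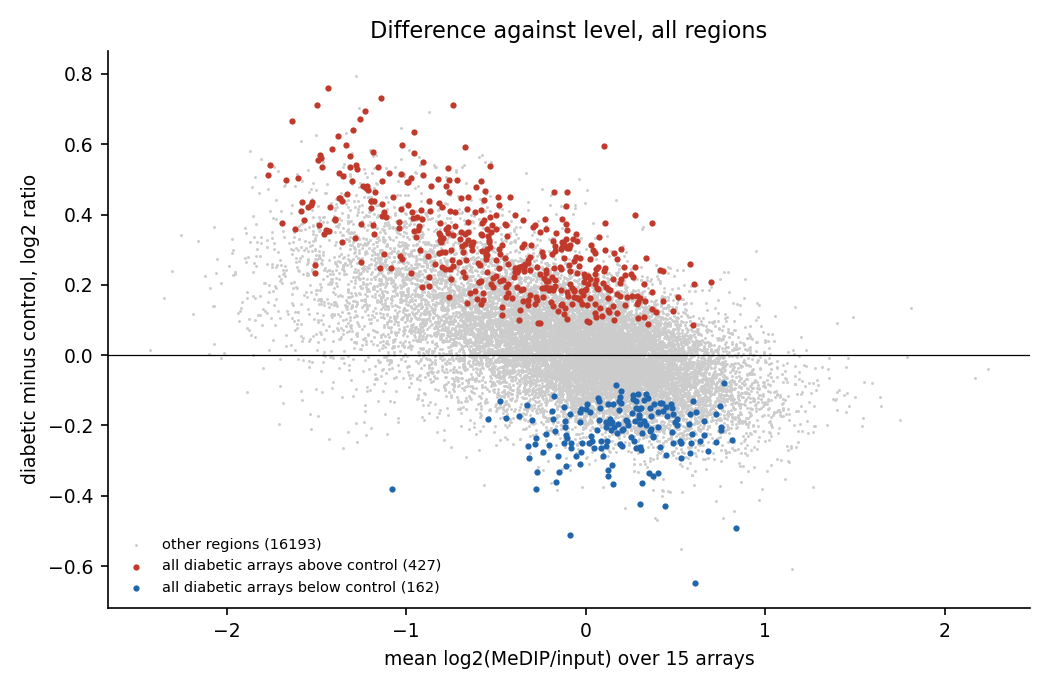
Each point is a region, with its mean log2 ratio over 15 arrays on the horizontal axis and the mean of the diabetic arrays minus that of the control arrays on the vertical axis. The 427 members above control (red) lie mostly on the left, at low ratios, and the 162 below (blue) mostly right of 0.

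The difference between diabetic and control means over the members above had a median of 0.29 on the log2 scale and ran from 0.09 to 0.76. Over the members below, the median was -0.21 and the range -0.65 to -0.08. Over all regions the median was 0.02. The gap between the nearest diabetic and the nearest control array was much smaller than these differences, with a median of 0.04 above and 0.03 below.

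The share of members changed steadily with the level. Regions were sorted into 5 bins of equal size by the midpoint of their control and diabetic means. Members above made up 6.14% of the lowest bin, then 3.16%, 2.12%, 1.04% and 0.268% of the highest. Members below made up 0.0298% of the lowest bin, a single region, and then 0.298%, 0.983%, 1.64% and 1.88%. Both orders run without a break across the 5 bins, in opposite directions.

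Probe length also differed between the sets. The median of the mean probe length was 50.1 nt in the members above, 47.2 nt in those below and 48.4 nt over all regions. Mean lengths of 50 nt or more were found in 220 of 427 members above (51.5%) and 19 of 162 below (11.7%), against 32.5% of all regions. Regions were also sorted into 3 bins by probe length. From the shortest to the longest, the share of members above was 1.42%, 2.19% and 4.04%, and of members below 1.40%, 1.13% and 0.359%. At a fixed level the share of members above did not rise with length in that way. Within the lowest level bin it was 6.49% of 77 regions with the shortest probes, 5.24% of 477 with middle lengths and 6.28% of 2803 with the longest. Within the next level bin it was 4.18%, 3.22% and 2.69%. The median number of probes per region was 10 in each set and over all regions.

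**Figure D2:**
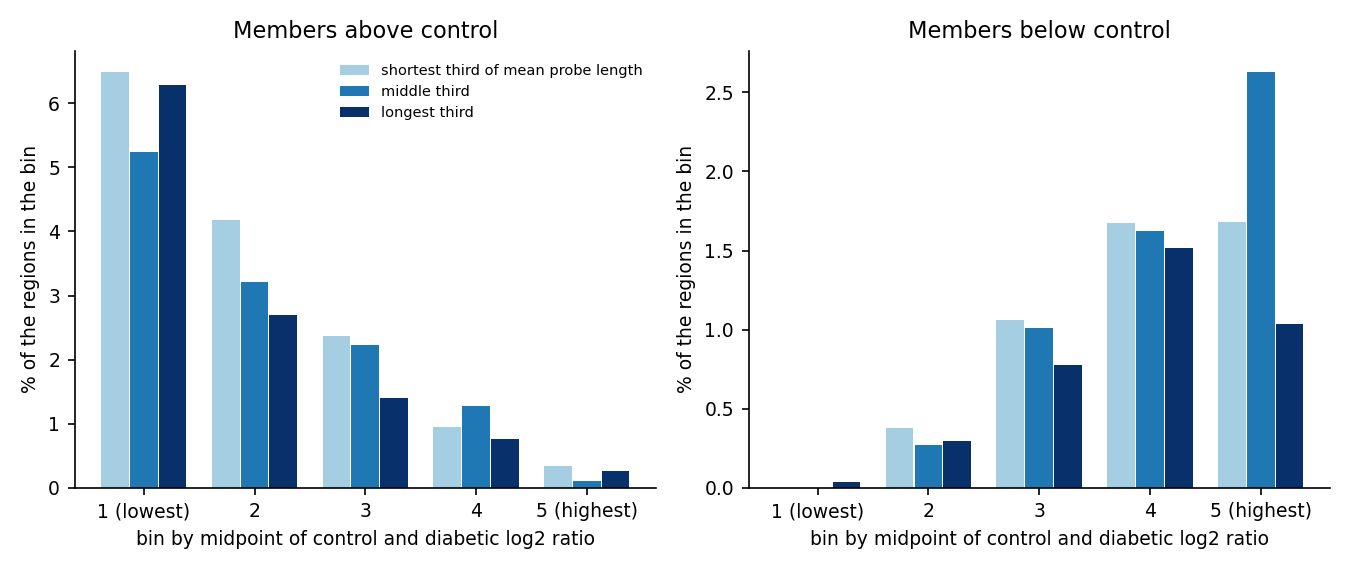
Bars give the percentage of regions that are members above control (left) or below control (right), in each of 5 bins by log2 ratio (midpoint of the control and diabetic means) and, by shade, each of 3 bins of mean probe length. The bars for members above are higher in the lowest bin than in the highest in every shade. Those for members below are highest in the top 2 bins.

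The rule fixes that the median over the members on every array falls on the side of its group, so only its size is described. Over the 427 members above, the control arrays had medians of -0.67, -0.68 and -0.71, and the DR model arrays -0.44, -0.47 and -0.37. The treated arrays lay between -0.45 and -0.33. Over the 162 members below, the control arrays had medians of 0.37, 0.36 and 0.39, the DR model arrays 0.20, 0.24 and 0.19, and the treated arrays between 0.14 and 0.19. Over all regions the medians of the 15 arrays overlapped, at -0.06 to -0.04 for controls and -0.06 to -0.01 for diabetic arrays.

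Both channels were then read apart, each as the log2 processed signal centred on its array's median. Over the members above, the MeDIP signal differed by a median of 0.15 between diabetic and control arrays, and the input signal by -0.07. Over all regions these medians were 0.04 and 0.08. Over the members below, the MeDIP signal differed by a median of -0.10 and the input signal by 0.17. Both signals differed in opposite directions in 154 of 427 members above (36.1%) and 95 of 162 below (58.6%), against 19.9% of all regions. Input signal was higher in diabetic arrays in 140 of 162 members below (86.4%), in 170 of 427 members above (39.8%) and in 63.3% of all regions. MeDIP signal was higher in 45 of 162 below (27.8%), in 324 of 427 above (75.9%) and in 56.6% of all regions. The MeDIP difference was larger in size than the input difference in 237 members above (55.5%) and 62 below (38.3%), against 42.4% of all regions.

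**Figure D3:**
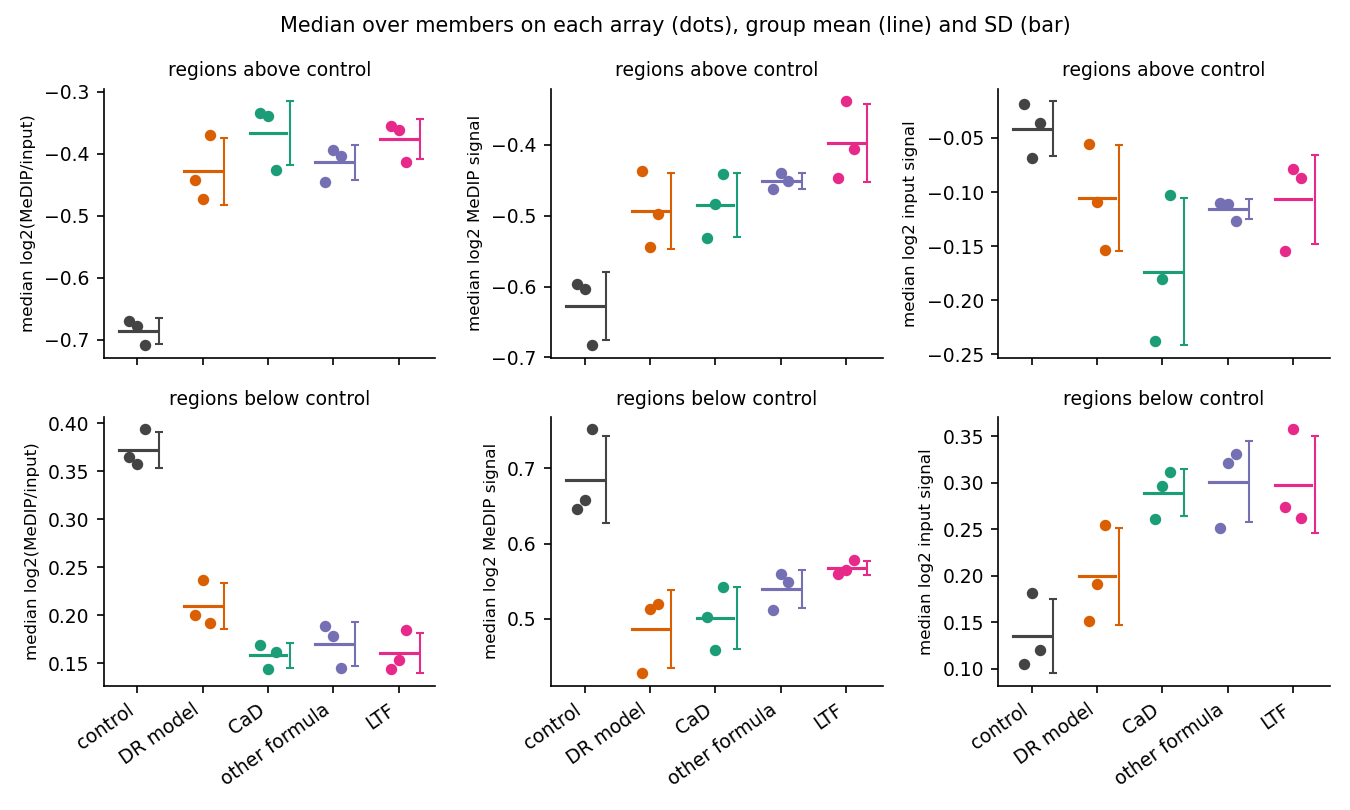
Dots are the medians over the members on each of the 3 arrays of a group, lines their mean and bars the SD. The upper row shows the 427 members above control and the lower row the 162 below, for the log2 ratio (left), the log2 MeDIP signal (middle) and the log2 input signal (right). The control arrays stand apart from all others in the ratio, as the rule fixes, and in the MeDIP signal of both rows. The input signal of controls overlaps that of the DR model in both rows.

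The channels of the members above control also followed probe length, as did those of all regions. In the 220 with a mean length of 50 nt or more, the median difference was 0.37 in the ratio, 0.03 in the MeDIP signal and -0.29 in the input signal. Input signal was lower in diabetic arrays in 200 of these 220 (90.9%), and MeDIP signal higher in 125 (56.8%). In the 207 with shorter probes, the median difference was 0.22 in the ratio, 0.26 in the MeDIP signal and 0.08 in the input signal. There the MeDIP signal was higher in 199 of 207 (96.1%) and the input signal lower in 57 (27.5%). All regions on the array showed a like tilt with length. At 50 nt or more their median difference was -0.15 in the input signal and -0.12 in the MeDIP signal, and below that 0.15 and 0.09. The MeDIP medians of the members above thus lay above those of all regions in both length classes, and their input medians lay below. Selection on a higher ratio favours both. Over all regions, the quartiles of the input difference were -0.31 and -0.02 at 50 nt or more, and 0.05 and 0.27 below that. Input signal was thus lower in most regions with longer probes and higher in most with shorter ones. Shares of all regions by length class were not counted, so the counts above have none beside them. Of the 162 members below, 143 had the shorter probes, with a median difference of -0.07 in the MeDIP signal and 0.18 in the input signal. The part of probe length in these differences was not tested.

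Many probes of the members above were dim in controls. The share of their spots with MeDIP signal well above background had a median of 76.7% on control arrays and 84.7% on diabetic arrays, against 87.5% and 90.7% over all regions. In the members below it was 96.7% on both. Of 4849 probes in the members above, 850 (17.5%) were not well above background on any control array and 444 (9.16%) on any diabetic array. Of 1780 probes in the members below, the counts were 54 (3.03%) and 40. The diabetic count asks a probe to fail on more arrays than the control count does. It can therefore be lower at equal dimness, so the control and diabetic counts cannot be compared with each other. Of the members above, 404 had at least 3 probes well above background on every array, and over those probes alone 131 of them (32.4%) still separated the groups. Their median difference was then 0.20. Of the members below, 75 of 160 (46.9%) still separated the groups over such probes, with a median of -0.16.

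Single probes rarely separated the groups. Of the probes with a value on every array, 235 of 4290 in the members above (5.48%) and 127 of 1524 in those below (8.33%) did so by themselves, against 1.29% and 0.973% of the probes of the whole array. In 245 members above (57.4%) and 75 below (46.3%) no probe did. Along the regions, 79.4% of the probes in members above and 78.1% in members below differed in the direction of their region. In 78 members above and 21 below every probe did. The rule selects on the mean of these same probes, so it favours such shares, and no share over all regions was computed. Divided into 5 parts from start to end, the 219 members above with at least 10 probes had median differences of 0.32, 0.25, 0.27, 0.20 and 0.24. The 93 such members below had -0.15, -0.20, -0.19, -0.20 and -0.18. These medians had the direction of the rule in all 5 parts, and they too describe the values that the rule selected on.

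The widest gap above control belonged to a region of 10 probes on chromosome 1 from 165803357 to 165804986. The ratios were -1.44, -1.41 and -1.40 in controls, -0.83, -0.99 and -0.72 in the DR model, -0.76, -0.54 and -1.0 with CaD, -1.04, -0.70 and -0.77 with the other formula, and -0.95, -0.69 and -1.09 with LTF. The lowest diabetic array lay 0.31 above the highest control, and the 4 diabetic groups overlapped each other. The mean difference was 0.58, with 0.38 in the MeDIP signal and -0.14 in the input signal. Every probe of the region differed upwards, by 0.05 to 1.14, and 1 separated the groups by itself. The difference was 0.0978 with normexp and 0.012 in the authors' value table. Only 36.7% of its spots were well above background for MeDIP on control arrays, and 40.0% on diabetic arrays.

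The next, on chromosome 3 from 97301211 to 97302805, had the largest difference of the 6 widest gaps, 0.73. Its log2 ratio was -1.81, -1.63 and -1.73 in controls, -1.34, -1.20 and -1.0 in the DR model, -0.92, -1.01 and -1.19 with CaD, -1.17, -0.81 and -0.94 with the other formula, and -0.61, -0.62 and -1.10 with LTF. DR model replicate 1 was nearest to the controls, and LTF replicates 1 and 2 were farthest. Here the MeDIP signal differed by -0.05 and the input signal by -0.72, so the difference lay in the input channel. The ratio difference was 0.13 with normexp and 0.14 in the authors' value table. The member on chromosome X from 79039747 to 79041186 had a control mean of -0.85 ± 0.03 (SD, n = 3), and the means of the 4 diabetic groups lay between -0.43 and -0.35. A region of only 3 probes, chromosome 7 from 51092315 to 51092784, had a control mean of -0.99 ± 0.08 (SD, n = 3) against -0.59 to -0.40 for the diabetic groups. It was the only one of these 6 with short probes, at a mean of 47 nt, and its MeDIP signal differed by 0.48 and its input signal by 0.06. The remaining pair, chromosome 8 from 17985146 and chromosome 1 from 163981540, had gaps of 0.25 and 0.24. Their differences of 0.67 and 0.50 were 0.16 and 0.07 with normexp, and 0.24 and 0.10 in the authors' value table. Those on chromosomes X and 7, at 0.45 and 0.48, were 0.09 and 0.08 with normexp.

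The widest gap below control lay on chromosome 8 from 126370797 to 126372423, with 11 probes. The ratios were 1.12, 1.19 and 1.39 in controls, 0.78, 0.84 and 0.70 in the DR model, 0.79, 0.57 and 0.61 with CaD, 0.81, 0.72 and 0.60 with the other formula, and 0.90, 0.82 and 0.72 with LTF. The controls stood 0.22 above the highest diabetic array, LTF replicate 1. The mean ratio was lower by -0.49 in diabetic arrays, yet both channels were brighter, the MeDIP signal by 0.24 and the input signal by 0.79. With normexp the ratio difference was -0.12, and -0.25 in the authors' value table. Each of the 11 probes differed downwards, by -0.05 to -1.11, and the 3 that separated the groups by themselves were not all adjacent.

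A region on chromosome 1 from 72884367 to 72884730, with 3 probes, had the opposite makeup. Its log2 ratio was 0.23, 0.29 and 0.43 in controls, -0.28, -0.00 and -0.30 in the DR model, 0.01, -0.30 and -0.32 with CaD, -0.43, 0.01 and -0.12 with the other formula, and -0.26, -0.24 and -0.09 with LTF. All 3 probes separated the groups, and every spot of the region was well above background. The MeDIP signal was lower by -0.96 and the input signal by -0.39 in diabetic arrays. On chromosome 8 from 53850807 to 53852411 the difference of -0.34 was nearly all in the MeDIP signal, at -0.36, with 0.05 in the input signal. Chromosome 2 from 113558308 to 113560077 was the only one of the 6 below a ratio of 0 in controls, at -0.79, -0.66 and -0.87, and lay between -1.39 and -1.03 on the diabetic arrays. The remaining 2 of the 6, on chromosome 6 from 46551293 and chromosome 13 from 88595647, had gaps of 0.18 and 0.17.

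**Figure D4:**
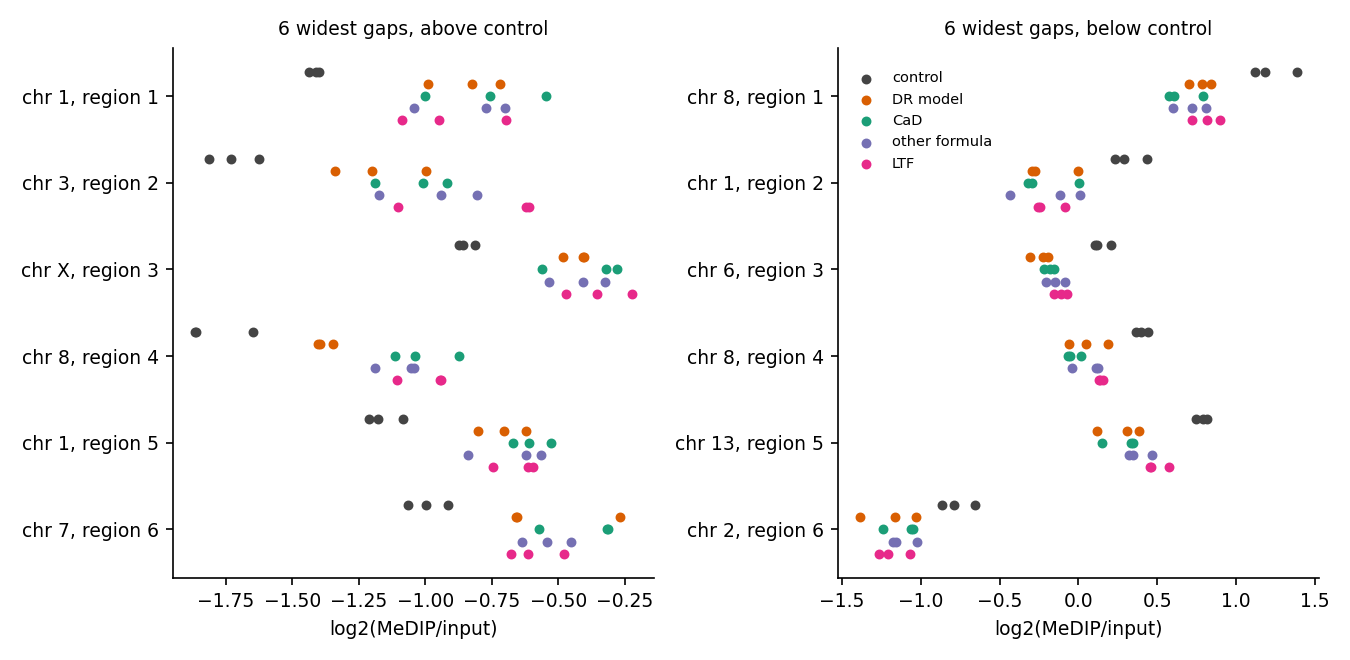
Rows are the 6 members with the widest gap above control (left) and below control (right), and each dot is the log2 ratio of 1 array, coloured by group. In every row the 3 control dots stand apart from the 12 diabetic dots, as the rule fixes. On chromosome 8 from 17985146 the DR model dots also lie apart from the treated ones.

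At the edge of the rule the members were hard to tell from other regions. The members above with the smallest gap, 0.0004 and 0.0005, were on chromosome 12 from 33390787 and on chromosome 11 from 84697617, with differences of 0.18 and 0.28. The nearest regions outside, on chromosome 3 from 53757579 and on chromosome 5 from 53471988, overlapped by -0.0002 and -0.0003 and differed by 0.33 and 0.29. Below control, the members on chromosome 3 from 7686284 and on chromosome 2 from 123109366 had gaps of 4.4e-05 and 0.0003 and differences of -0.17 and -0.08. The regions just outside, on chromosome 5 from 145629157 and chromosome 10 from 110008851, overlapped by -0.0002 and -0.0009 and differed by -0.14 and -0.11. The members with most probes had small differences: 0.09 over 248 probes on chromosome 1 from 135241889 to 135286510, and -0.15 over 94 probes on chromosome 8 from 54455664 to 54472613.

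Some arrays set the edge more often than others. Among those above, the highest control was replicate 1 in 184 of 427 members, replicate 2 in 147 and replicate 3 in 96. The lowest diabetic array was DR model replicate 2 in 141 and DR model replicate 1 in 73, and no other array in more than 50. Among those below, control replicate 2 was the lowest control in 77 of 162, and DR model replicate 2 the highest diabetic array in 49. Leaving out an array keeps every member by construction and lets others in. Without control replicate 1 there were 1191 above and 377 below, without control replicate 2 885 and 534, and without control replicate 3 691 and 379. Without DR model replicate 2 there were 774 and 420, and without DR model replicate 1 612 and 245.

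The members' differences within scans had the direction of the rule, which fixes it. Scan 5 held control replicates 2 and 3 with DR model replicate 1, and the median difference there was 0.24 above and -0.17 below, against 0.04 over all regions. Scan day 1, with control replicate 1 and arrays of 3 diabetic groups, gave 0.23 and -0.20, against -0.02 over all regions. Scan day 3 gave 0.31 and -0.19, against 0.05. Apart from scan 5, no scan held control and diabetic arrays together.

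Scaling between arrays changed which regions were members. After the arrays were scaled to 1 interquartile range, 316 regions lay above and 147 below. After quantile normalization 227 lay above and 249 below, which turned the share of members above from 72.5% to 47.7%. Of the original members, 171 of 427 above and 113 of 162 below still separated the groups after quantile normalization, with median differences of 0.21 and -0.19. With normexp background correction, which models a background under the raw signals, 107 and 15 still did, and the medians shrank to 0.12 and -0.05.

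Members above control were spread over the chromosomes unevenly. Chromosome 3 had 53 of its 1401 regions (3.78%), chromosome 8 had 36 of 979 (3.68%) and chromosome 1 had 82 of 2316 (3.54%). Chromosome 12 had 3 of 446 (0.673%) and chromosome 19 had 4 of 426 (0.939%), and these were the chromosomes with the highest median log2 ratios, 0.17 and 0.14. The X chromosome, with the lowest median ratio of -0.18, had 17 of 606 (2.81%). Members below were most frequent on chromosomes 14 (1.58%) and 12 (1.57%), and least on chromosomes 7 (0.453%) and 16 (0.463%).

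Members above also lay near each other. Of 425 on placed chromosomes, 42 (9.88%) had another as the next or previous region, against 4.80% of regions that were not members above. Below control these shares were 3.73%, or 6 of 161, and 1.90%. With members of the same direction joined where at most 1 Mb apart, the members above formed 29 clusters of at least 3, which held 130 of them (30.6%), and 211 stood alone. A fixed distance joins more members in a larger set, so clusters of the 425 above and the 161 below cannot be compared directly. The members below formed 1 cluster of at least 3, and 118 of 161 (73.3%) stood alone. That cluster held 3 of the 7 regions on chromosome 1 from 193097731 to 194173364, with differences of -0.24, -0.29 and -0.17.

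The largest cluster above control spanned 6262 kb of chromosome 3, from 67886627 to 74148978, with 19 members among 219 regions. Its members had a median log2 ratio of -1.04, a median probe length of 56.2 nt and differences of 0.16 to 0.67. They were not isolated within the stretch: 199 of the 219 regions differed upwards, with a median of 0.23. In 18 of the 19 members the input signal was lower in diabetic arrays, with a median difference of -0.48, while the MeDIP signal had a median difference of 0.02 and was higher in 10. Over all 219 regions of the stretch the medians were -0.38 in the input signal and -0.18 in the MeDIP signal. The exception in input signal was the region from 68218697 to 68220064, with a mean probe length of 48.1 nt, the shortest of the cluster. There the MeDIP signal differed by 0.24 and the input signal by 0.07. The largest difference in the cluster, 0.67, was in the region from 71137523 to 71139031. Its log2 ratio was -2.04, -2.08 and -2.39 in controls, -1.78, -1.97 and -1.53 in the DR model, and between -1.63 and -1.21 on the treated arrays, and its MeDIP signal differed by 0.02 and its input signal by -0.58.

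The next clusters by size had long probes. Those at 39606157 to 41645273 and 16970865 to 19279706 of chromosome 8 held 7 members each, which had median lengths of 55.2 and 57.1 nt and median differences of 0.43. Input signal was lower in all 7 of both. The whole stretches, of 63 and 40 regions, had median differences of 0.28 and 0.36, with -0.39 and -0.34 in the input signal. In them 56 and 39 regions differed upwards. Among the clusters of 5, 3 had short probes. They lay at 84974866 to 86435271 of chromosome 10, 78356963 to 80591803 of chromosome 1 and 169819267 to 171017045 of chromosome 3. Their median differences were 0.25, 0.21 and 0.19, with 0.26, 0.20 and 0.11 in the MeDIP signal. All regions of those stretches together had median differences of 0.04, -0.003 and 0.02.

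Each diabetic group was set against control apart. The same 3 control arrays serve all 4 comparisons. Over the members above, the DR model had a median difference from control of 0.25, CaD of 0.32, the other formula of 0.28 and LTF of 0.30, against 0.04, 0.04, 0.01 and 0.01 over all regions. Over the members below, the medians were -0.17, -0.23, -0.21 and -0.22. Among the members above, CaD was farthest from control in 181, LTF in 150, the other formula in 50 and the DR model in 46. The shares over all regions were 29.2%, 31%, 20.0% and 19.8% in that order, against 42.4%, 35.1%, 11.7% and 10.8% of the members above. Among those below, LTF was farthest in 58 (35.8%), CaD in 47 (29.0%), the other formula in 35 and the DR model in 22. All 3 treated groups lay farther from control than the DR model in 218 of 427 members above (51.1%) and 82 of 162 below (50.6%), and all 3 lay nearer in 46 and 22. The DR model was the nearest to control in 42.7% of all regions.

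**Figure D5:**
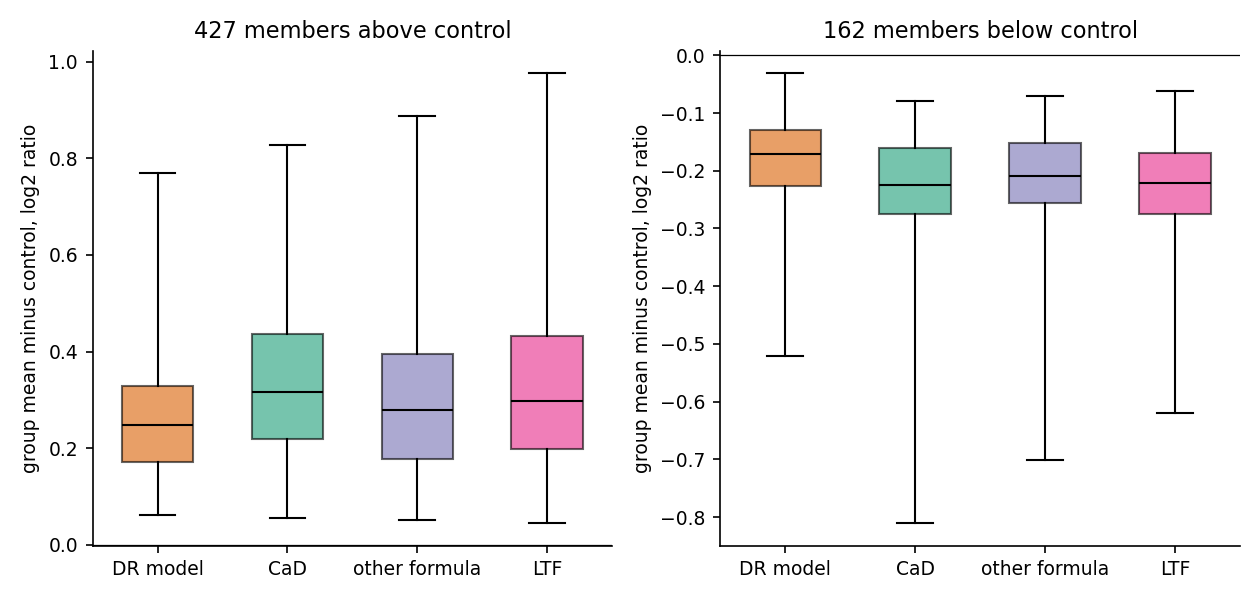
Boxes give the median and quartiles, and whiskers the full range, of each diabetic group's mean minus the control mean over the 427 members above control (left) and the 162 below (right), in log2 ratio. The DR model has the median nearest to 0 on both sides, 0.25 and -0.17, and the boxes of the 4 groups overlap.

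Differences between each treated group and the DR model do not contain the control means and were tested with limma over all 16782 regions, with the control arrays in the estimate of the spread. The rule still bears on them, because it used the diabetic arrays too and keeps regions where none lies on the control side. A region whose level a treatment brought back to that of the controls cannot be a member, so these comparisons cannot show a return to control. The spread between control arrays was also small in the members, with a median SD of 0.07 above and 0.05 below against 0.11 over all regions. CaD differed from the DR model in 0 members at an adjusted p of 0.05 in limma, with 0% of all regions called. At an unadjusted p under 0.05 there were 50 members above (11.71%) and 16 below (9.88%), against 14.98% of all regions. The other formula also differed in 0, with 0% of all regions called. It had 29 (6.79%) and 12 (7.41%) members at an unadjusted p under 0.05, against 15.11% of all regions. In these comparisons the members' shares at the unadjusted threshold were thus below that of all regions. LTF differed in 6 members, 4 above control and higher still under LTF and 2 below and lower still, where 0.9% of all regions were called. The mean of the 3 treated groups differed in 5 members above, all higher, and 1 below, lower, where 2% of all regions were called. The shares of members called for LTF, 0.937% above and 1.23% below, were near that of the whole array. For the treated mean they were 1.17% and 0.617%, under that of the whole array. At an unadjusted p under 0.05 in limma, LTF had 17.10% of members above and 14.20% below, against 19.43% of all regions. The treated mean had 15.22% and 17.28%, against 21.70%.

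The medians of these comparisons were small. Over the members above, CaD minus DR model had a median of 0.08, the other formula 0.03 and LTF 0.05, against 0.01, -0.02 and -0.02 over all regions. Over the members below the medians were -0.04, -0.03 and -0.04. With other settings or without single arrays, and over the members then found, some medians moved by more than 1.5 times. For the other formula the median above was 0.002 without DR model replicate 2, 0.06 without DR model replicate 3 and 0.01 with interquartile scaling. For CaD it was 0.04 after quantile normalization. The typical standard error of a single region was 0.08 above and 0.07 below. CaD was higher than the DR model in 80.8% of the members above, the other formula in 63.0% and LTF in 70.0%, against 51.9%, 44.1% and 43.2% of all regions. Within scan 6, which held DR model replicate 3 and CaD replicates 1 and 2, the median of CaD minus DR model was 0.03 above and -0.03 below, against 0.08 and -0.04 over all arrays.

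The member called with the smallest p for LTF lay on chromosome 18 from 60769 to 61836, with 7 probes. The ratios were -1.85, -1.81 and -1.79 in controls, -1.58, -1.62 and -1.38 in the DR model, -1.18, -1.05 and -1.23 with CaD, -1.20, -1.13 and -1.25 with the other formula, and -0.95, -1.26 and -0.78 with LTF. All treated arrays lay above all DR model arrays, and these above all controls. LTF was higher than the DR model by 0.53 ± 0.10 (SE), with an adjusted p of 0.0336 in limma, and higher on 3 of 3 arrays than every DR model array. Over 27 alternatives the limma adjusted p ran from 0.00784 to 0.405 and the difference from 0.18 to 0.66, and 13 kept the call. The setting without dim probes was not among them, since no region with this start was found there. The mean of the treated groups was higher there by 0.41 ± 0.08 (SE, adjusted p = 0.0281 in limma, 0.00534 to 0.183 over the alternatives, where the difference ran from 0.12 to 0.49). The input signal was -0.12 in controls, -0.56 in the DR model and -0.63 to -0.50 in the treated groups, and the MeDIP signal was -1.98 in the DR model and -1.38 with LTF. The step from control to the DR model was thus in the input signal, and the step from the DR model to LTF in the MeDIP signal.

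The region on chromosome 8 from 17985146 to 17986876 was called for both LTF and the treated mean. Controls had log2 ratios of -1.65, -1.87 and -1.86, and the other arrays had -1.40, -1.40 and -1.35 in the DR model, -1.04, -1.11 and -0.87 with CaD, -1.19, -1.05 and -1.04 with the other formula, and -1.11, -0.94 and -0.94 with LTF. Again the 3 sets of arrays did not overlap. The treated mean was higher than the DR model by 0.35 ± 0.07 (SE, adjusted p = 0.0265 in limma), with 0.00966 to 0.209 over 27 alternatives, of which 16 kept the call. The difference ran from 0.08, with normexp, to 0.52. Here too the setting without dim probes was not among the alternatives. For CaD the difference of 0.37 and for the other formula that of 0.29 did not pass, at adjusted p of 0.113 and 0.145 in limma. A member that separated less from control in the DR model was chromosome 1 from 200828156 to 200829856. There the DR model arrays, at -0.66, -0.69 and -0.65, were close to the controls, at -0.76, -0.77 and -0.80. LTF was higher than the DR model by 0.38 ± 0.08 (SE), with an adjusted p of 0.0368 in limma, and 0.0185 to 0.451 over 28 alternatives. The members called that the naming rule did not pick, named after their values were seen, were chromosome 13 from 85444026 to 85445759 for LTF and chromosome 11 from 37461881 to 37465323 for the treated mean. They were higher by 0.35 ± 0.08 (SE, adjusted p = 0.0441 in limma, 0.0272 to 0.471 over 27 alternatives) and by 0.23 ± 0.05 (SE, adjusted p = 0.0390 in limma, 0.0113 to 0.214 over 28 alternatives). The call on chromosome 13 was likewise not checked without dim probes.

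Of the 2 members below that were lower under LTF, the one on chromosome 10 from 89147916 to 89149594 had 0.63, 0.63 and 0.71 in controls, 0.60, 0.61 and 0.53 in the DR model, and 0.32, 0.31 and 0.37 with LTF. The CaD and other formula arrays lay between 0.39 and 0.46, below all DR model arrays. LTF was lower by -0.25 ± 0.06 (SE, adjusted p = 0.0482 in limma, 0.0185 to 0.471 over 27 alternatives). The other, on chromosome 1 from 130884319 to 130885878, had 0.09, 0.08 and 0.09 in the DR model and -0.32, -0.24 and -0.09 with LTF. Its difference of -0.30 ± 0.06 (SE, adjusted p = 0.0419 in limma) fell short of the call in 20 of 28 alternatives, with limma adjusted p from 0.0217 to 0.586. It was -0.17 with outlier spots kept, -0.08 with loess and -0.04 in the authors' value table. Only 6 of its 9 probes had a value on every array, so different probes were averaged on different arrays there.

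The calls depended on single arrays. Without DR model replicate 3, whose interquartile range of 1.22 was like that of the treated arrays, limma called 24 of the 606 members then found for CaD, 10 for the other formula, 38 for LTF and 41 for the treated mean. Over all regions it then called 8.51%, 6.76%, 7.79% and 13.9%, so more of the array as a whole was called too. Without DR model replicate 1 or 2, LTF replicate 1 or 3, CaD replicate 2 or other formula replicate 2, the count for LTF was 0. It was 1 without CaD replicate 1 or LTF replicate 2, 2 without CaD replicate 3 or other formula replicate 3, 3 without other formula replicate 1 and 14 without control replicate 1. For the treated mean it was 0 without DR model replicate 1 or 2 or other formula replicate 2 or 3, and 1 without CaD replicate 2 or 3 or LTF replicate 1. It was 2 without CaD replicate 1 or LTF replicate 2, 11 without control replicate 2 and 19 without control replicate 1. With scan as a random block limma called 0 members for LTF, 0 for the treated mean and 0% of all regions. The differences of the 6 members called for LTF stayed near their values, such as 0.54 on chromosome 18 from 60769 and 0.38 on chromosome 1 from 200828156, while the standard errors grew to 0.14 and 0.11. LTF shared no scan with another group, so the part of scan in its 6 calls cannot be told apart from that of treatment.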

How the data were processed

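Per the labels, MeDIP DNA was labelled with Cy5 and input DNA with Cy3, and the 15 arrays hold biological replicates. Feature Extraction 11.0.1.1 made the deposited files, with probe positions on rn4, per the file headers. Each spot has an intensity in both channels, the processed one background-subtracted and dye-normalised, and there is the authors' log10 ratio, which matched the ratio of processed signals within 0.001 (log2) on 99.3% to 99.9% of probes. The values of the authors' table were assumed to be log2. No source used here gives how they were centred or turned. The table's column medians were 0.01 to 0.05, and they correlated with the scanner ratios at 0.846 to 0.886. The submitters' processing notes name limma, with no role.

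After 6856 control spots and, per array, 235 to 10700 outlier spots were left out, log2 of Cy5 over Cy3 was centred on each array's median. Of 17668 runs of probes, 884 had fewer than 3 probes and 2 lacked a value, which left 16782 regions with 171421 probes. limma 3.58.1 in R 4.3.3 fitted a mean per group over all 15 arrays, with Benjamini-Hochberg adjustment over all regions and a threshold of 0.05. The fit was tested on simulated data.

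The members, bins and clusters were chosen with earlier results of these data known. Named regions were, in each direction, the 6 widest gaps, the members with the 2 smallest p higher and lower in each comparison with the DR model, the 2 nearest to the rule's edge on each side, the largest cluster and the member with most probes. Alternatives were normexp (offset 50) on the median signals, since the files hold no mean signals, loess, quantile and interquartile scaling, the authors' table, probe and gap limits, scan and replicate blocks, and single arrays left out. Leaving out control replicate 1 with DR model replicate 2, and leaving out the LTF group, were added after the data were seen. Genes and sequences are not given, because the reference tables at hand use another assembly. The number of arrays limits the precision.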

Additional observations from a re-analysis of the deposited data

How the results depend on the processing

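The number of members above control was 227 after quantile normalization, 710 with loess within arrays, 248 with the median over probes of a run and 430 to 1191 with single arrays left out. The number below control was 43 with normexp background correction, 249 after quantile normalization, 382 with loess, 281 in the authors' value table and 165 to 534 with single arrays left out. Without both arrays alone in their scan the counts were 1641 and 711. The share of members above, 72.5%, was 91.9% with normexp, 47.7% after quantile normalization, 54.5% in the authors' table, 62.3% with the median over probes and 62.4% without control replicate 2.

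The members were found anew in each setting but the blocks and the scan day. Members called for LTF minus DR model numbered 17 with normexp, 1 after quantile normalization, 12 with outlier spots kept, 14 without probes that were not well above background, 0 with scan as a random block and 0 to 38 with single arrays left out. The shares of all regions called in the first 4 were 2.62%, 1.04%, 1.94% and 4.48%. For the mean of the treated groups the numbers were 13, 0, 12, 19, 0 and 0 to 41 in the same order, and 0 with interquartile scaling, 16 in the authors' table and 11 with shorter gaps between probes. The shares of all regions were 3.12%, 0.197%, 4.43% and 9.92% in the first 4. With interquartile scaling, in the authors' table and with shorter gaps they were 0.417%, 4.22% and 2.82%. For CaD, members called numbered 1 without dim probes and 3 in the authors' table, where 0.106% and 0.471% of all regions were called. With single arrays left out they numbered 0 to 24. For the other formula, 1.92% and 0.846% of all regions were called in those settings. Its members called numbered 3 and 1 there, and 0 to 10 with single arrays left out. Within scan day 1 they were 4, where 5.85% of all regions were called and the DR model had 1 array, assumed to vary like the other groups. Scan or scan day as a fixed block could not be fitted for LTF or the treated mean.

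Replicate numbers did not pair the rats: deviations of same-numbered arrays correlated at -0.42 to 0.33 over 30 pairs. With a replicate block limma called 0 members for CaD, 0 for the other formula, 0 for LTF and 2 for the treated mean.

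The sign of the difference between diabetic and control arrays was followed under the alternatives for 30 named members. This left out members named only for the largest cluster above and named regions outside the rule. It also left out members called but not picked by the naming rule. Leaving out arrays cannot change this sign, because the rule fixes it. A higher limit on the number of probes leaves the values of the remaining regions as they were. Only the other settings could therefore change the sign. Of the 30, 26 kept the sign under every alternative run. The exceptions were chromosome 2 from 123109366, at 0.0128 with normexp and 0.0144 with interquartile scaling, chromosome 3 from 7686284, at 0.0131 with normexp, chromosome X from 20909676, at 0.00761 without dim probes, and chromosome 12 from 36127238, at 0.0606 with longer gaps between probes, where CaD minus DR model was 0.0312. Longer gaps join runs, so the last region then held further probes. The cause of the other changes was not tested. Dim probes and 3 arrays a group limit what can be told.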
